A study of Drosophila melanogaster with 3 samples.

Results

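The genes described here encode the proteins of the cytoplasmic ribosome of Drosophila melanogaster. They were taken by symbol: protein-coding genes whose name starts with RpL (large subunit) or RpS (small subunit), followed by a digit or by P for the stalk proteins. This gave 92 of 13968 protein-coding genes, 54 of the large subunit and 38 of the small, including 5 whose symbol ends in -like. The data are chromatin immunoprecipitation followed by sequencing (ChIP-seq) with an anti-GFP antibody. The transgenic fly line expressed a fusion of GFP to the C terminus of Achaete (Ac), a DNA-binding protein of the helix-loop-helix class that helps make neural precursors. Chromatin came from whole embryos of mixed sex, 0 to 8 hours old, fragmented by sonication to 200 to 800 bp. There were 3 replicates of this 1 group, numbered as biological replicates in the labels, and no second genotype, stage or antibody. Whole embryos mix all cell types, so a region cannot be placed in the cells that express ac. How the replicates were collected is not given, so the SD over n = 3 measures the spread between these 3 samples, and how much of it is biological cannot be told.

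The ribosome reads messenger RNA and joins amino acids into protein. Its small subunit decodes the message and its large subunit forms the peptide bond. Ribosomal protein genes are expressed in nearly all cells, and their products are needed in matched amounts. In Drosophila, losing 1 copy of many of them gives the Minute phenotype of slow development and short bristles. Their transcripts usually begin inside a run of pyrimidines, the TCT initiator, in place of the common fly initiator. Most are single-copy genes, but some have a paralogue, often marked by a final a or b, and several such copies are known for expression in the germline.

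The sequence around the start is shown first for 6 of the 10 genes with the strongest Achaete-GFP summits, because the summits lay close to it. Each line runs 5′ to 3′ on the strand of the gene, from 30 bases before an annotated transcript start to 20 bases after it, with the start as base 31. Capitals mark CTTTC or CTTTT with its C at most 5 bases from the start, the definition of the TCT initiator used here. The sequences come from the release 6 (dm6) genome in RefSeq. Their positions are chr3R:25247452-25247502 (minus strand) for RpS27, chr2L:10201070-10201120 (plus) for RpL7, chr2L:13395072-13395122 (minus) for RpL24, chr3L:13041771-13041821 (plus) for RpS4, chr3L:8600976-8601026 (plus) for RpL14 and chr3R:5624444-5624494 (plus) for RpL13A.
RpS27: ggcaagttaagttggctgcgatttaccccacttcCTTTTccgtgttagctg
RpL7: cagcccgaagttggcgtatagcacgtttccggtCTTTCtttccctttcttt
RpL24: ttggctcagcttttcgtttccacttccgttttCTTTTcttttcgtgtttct
RpS4: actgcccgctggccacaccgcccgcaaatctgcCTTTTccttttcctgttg
RpL14: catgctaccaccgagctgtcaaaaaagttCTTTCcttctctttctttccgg
RpL13A: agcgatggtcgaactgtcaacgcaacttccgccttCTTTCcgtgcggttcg

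The second set shows 3 pairs of paralogues in which 1 copy had a summit at its start and the other did not. The copies with a summit were RpS19a (chrX:16637864-16637914, plus), RpS5a (chrX:17148244-17148294, minus) and RpS10b (chrX:19598010-19598060, plus). Those without were RpS19b (chr3R:23933510-23933560, minus), RpS5b (chr3R:14901543-14901593, minus) and RpS10a (chr3R:27652730-27652780, plus). RpS10b had no match at this distance but had one when the C could lie up to 10 bases away, while RpS19b and RpS10a had none at either distance.
RpS19a: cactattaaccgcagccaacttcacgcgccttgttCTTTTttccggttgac
RpS19b: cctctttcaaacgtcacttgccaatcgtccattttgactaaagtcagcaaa
RpS5a: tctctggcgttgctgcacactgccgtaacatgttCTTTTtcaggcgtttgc
RpS5b: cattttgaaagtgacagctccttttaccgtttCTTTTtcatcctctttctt
RpS10b: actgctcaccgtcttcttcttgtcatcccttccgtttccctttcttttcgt
RpS10a: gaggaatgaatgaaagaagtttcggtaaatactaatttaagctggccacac

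The authors deposited a list of 30000 regions for each replicate, a pooled list of the same length, and an optimal list of 2756 peaks derived from them by the irreproducible discovery rate, which compares ranks between replicates. The summit is the base of strongest signal in a region. Regions were ranked by the authors' signal value within each list, 1 being the strongest, and the 2756 strongest of each replicate are called its top regions. Regions with a q value of at most 0.05 numbered 3453 in replicate 1, 9954 in replicate 2 and 7898 in replicate 3. The depth of each replicate is unknown, and no read counts were used.

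Most ribosomal protein genes carried an optimal summit within 500 bp of an annotated transcript start of their own: 60 of 92 did so (65.2%), against 9.01% of all protein-coding genes. No summit was shared by 2 of them. In total 61 different summits lay at these 60 starts, since RpS25 had a second, weaker one. Large subunit genes had a summit in 38 of 54 cases (70.4%) and small subunit genes in 22 of 38 (57.9%). The optimal list is a single list made from all replicates, so these counts carry no replicate error.

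The same excess was seen in each replicate's own top regions. In replicate 1, 68.5% of the ribosomal protein genes had a top region at their start, against 9.11% of all protein-coding genes. Replicate 2 gave 65.2% against 8.80%, and replicate 3 gave 57.6% against 8.64%. The mean was 63.8% ± 5.58 (SD, n = 3) for ribosomal protein genes and 8.48% ± 0.205 (SD, n = 3) for all other genes. The difference was 55.3 ± 5.40 percentage points (SD, n = 3), positive in 3 of 3 replicates. An exact two-sided sign-flip permutation test over the replicates gave p = 0.25, the smallest p that 3 values allow. No comparison over these replicates can therefore pass 0.05, and each is read from its size beside its SD.

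**Figure D1:**
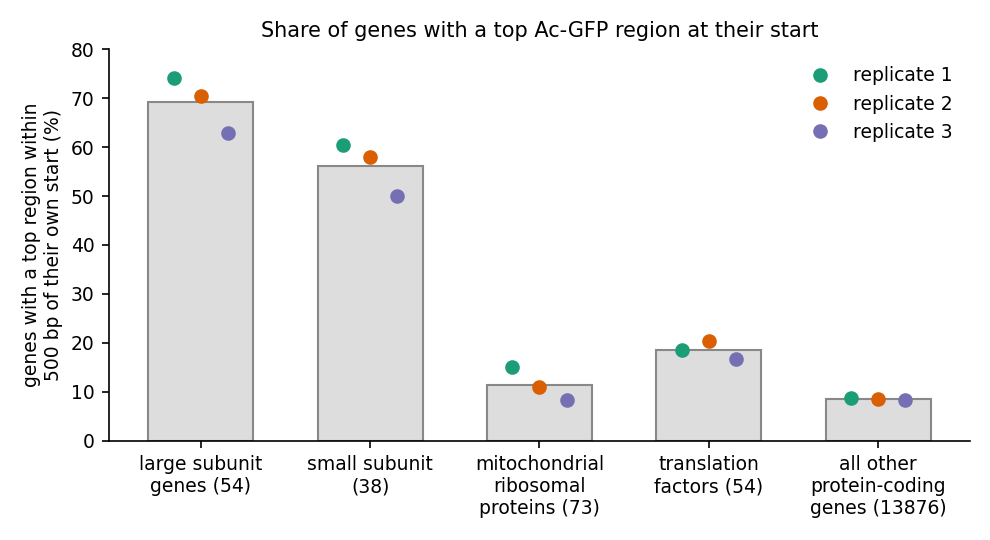
Share of genes with a top region within 500 bp of their own start (y axis, percent) in 5 gene groups. Points are the 3 replicates and bars their means; the large subunit points sit between 63.0% and 74.1%, the small subunit points between 50% and 60.5%, and all points of the other 3 groups lie at or below 20.4%.

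Large subunit genes had a top region more often than small subunit genes in every replicate. The shares were 74.1%, 70.4% and 63.0% for the large subunit in replicates 1, 2 and 3, and 60.5%, 57.9% and 50% for the small. The difference was 13.0 ± 0.537 percentage points (SD, n = 3; exact sign-flip permutation test, two-sided, p = 0.25). That spread describes replicates of the same 92 genes, and does not measure how the difference would vary over other genes. The subunits also differ in their paralogues. Of the pairs named a and b, only RpL10A and RpL34 belong to the large subunit and all others to the small. Genes named -like belong to the large subunit, RpS28-like aside. The share of these copies in the difference was not tested. Ranks ran the same way: the median rank of the strongest region at the start was 713, 1385.5 and 1340 for large subunit genes and 1046, 1876.5 and 2118.5 for small subunit genes, among genes with a region in that replicate.

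The nuclear genes for the other ribosome, that of mitochondria, were far less often occupied. Of 73 mitochondrial ribosomal protein genes, 8 had an optimal summit (10.96%), and the share with a top region was 15.1%, 10.96% and 8.22% in replicates 1, 2 and 3. Cytoplasmic ribosomal protein genes exceeded them by 52.4 ± 2.60 percentage points (SD, n = 3; exact permutation p = 0.25, two-sided). Translation factor genes, whose products start, extend or end protein chains on the ribosome, had an optimal summit in 13 of 54 cases (24.1%). Their top-region shares were 18.5%, 20.4% and 16.7%, which is 45.2 ± 4.52 percentage points below the ribosomal protein genes (SD, n = 3; exact permutation p = 0.25, two-sided). Single genes of these lists could still rank high: mRpS10 at optimal rank 9 and mRpS23 at 30 were above every cytoplasmic ribosomal protein gene. The strongest translation factor genes were eIF4EHP, a cap-binding protein, at 111 and eEF1gamma, a subunit of the elongation factor complex, at 228.

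The 2 other proteins of the small subunit whose symbols fall outside the naming rule had summits too. Rack1, a scaffold protein on the small subunit, had optimal rank 713, a summit 3 bp upstream of its start, and ranks 644, 794 and 1355 in replicates 1, 2 and 3. The gene sta, which encodes small subunit protein SA, had optimal rank 1733, a summit 19 bp upstream, and ranks 3105, 1738 and 2774. Ribosome biogenesis genes, which act in making the ribosome without being part of it, had a summit in 2 of 14 cases (Ns2 at rank 82 and NHP2, a snoRNP protein, at 1807). Of 7 growth regulators found by symbol, only Thor, the fly 4E-BP, had one, at rank 1217, with ranks 1098 and 576 in replicates 2 and 3 and no region in replicate 1. The share was 14.3% in the biogenesis list and in the growth regulator list, against 9.01% of all protein-coding genes. With lists this short, that is not read as a difference.

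The strongest summit at a ribosomal protein gene belonged to RpS27, a zinc finger protein of the small subunit. It had optimal rank 43, and ranks 15, 78 and 69 in replicates 1, 2 and 3. The summit at chr3R:25247504 lay 10 bp downstream of the nearest RpS27 start and 32 bp upstream of the TCT start printed above. All 3 replicates placed RpS27 within their 100 strongest regions.

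RpL7, a large subunit protein, followed at optimal rank 105 with replicate ranks 54, 231 and 109 and a summit 40 bp upstream of the printed start. RpS10b had optimal rank 204 (84, 310 and 252 in the replicates; offset −19 bp). RpL24 had optimal rank 227 (117, 264 and 415; 5 bp downstream of its upstream start and 34 bp upstream of the printed one). The windows printed above hold the summits of RpS10b, RpS4 and RpL14 but not those of RpS27, RpL7, RpL24 and RpL13A. RpS4 had optimal rank 236, and its replicate ranks of 231, 236 and 253 were the most alike among these 10 genes. RpL14 at optimal rank 238 spread widely instead, with ranks 56, 414 and 945.

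Further genes of these 10 were RpL13A at optimal rank 297 (199, 387 and 202 in the replicates), RpL28 at 329 (146, 409 and 886) and RpLP0 at 367 (186, 573 and 560). The RpL28 summit lay 31 bp upstream of its own start and 350 bp upstream of the start of eIF1, so 1 region counted for both genes. In each of the 10 genes, all 3 replicates had a top region. RpLP0 is the base of the stalk, the arm of the large subunit that calls in elongation factors.

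The other stalk genes differed from it. RpLP1 had optimal rank 1358 and ranks 971, 1773 and 1853. RpLP2 had none: its region was at rank 2794 of the pooled list, the first member beyond the 2756 of the optimal list, with ranks 1287 and 3373 in replicates 1 and 2 and no region in replicate 3. The partners of 5S RNA in the large subunit also split. RpL11 had optimal rank 399 (310, 459 and 520), while RpL5 had no optimal summit and ranks 1343, 11949 and 11421.

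Ribosomal proteins made as a fusion with ubiquitin or a ubiquitin-like protein gave 1 gene with a summit and 2 without. RpS27A had optimal rank 1067 (827, 1833 and 2132). RpL40 had ranks 16493 and 10670 in replicates 1 and 3 and no region in replicate 2, and RpS30 had ranks 5499 and 3358 in replicates 2 and 3 and none in replicate 1. RpS6, the small subunit protein phosphorylated by S6 kinase, had optimal rank 1508 (1303, 3100 and 957). RpS12, known in Drosophila for its part in the competition between Minute cells and their neighbours, had optimal rank 1378 (1009, 1509 and 1477). RpS3, which lines the entry of the message, had no optimal summit and ranks 11139, 4766 and 19686. These role-based picks among single genes were made after their values were seen.

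Across the 60 genes with an optimal summit, replicate support was uneven. All 3 replicates had a top region in 43, 2 replicates in 14 and 1 replicate in 3. Those 43 are 46.7% of all ribosomal protein genes, against 4.71% of all protein-coding genes with a top region in all 3 replicates. The 3 genes backed by the top regions of 1 replicate were RpL36A (optimal rank 2010; 28156, 756 and 6992 in the replicates), RpL38 (optimal rank 2640; 1926, 2769 and 28296) and RpLP0-like (optimal rank 1619; 2865, 2825 and 1650). RpL38 was the weakest of the 60. In RpS2 and RpS9 replicate 1 was the low one, at ranks 23391 and 11597, while replicates 2 and 3 ranked them between 1703 and 2443. In RpS5a replicate 3 was low, at 16218 against 586 and 863.

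Replicate 1 ranked these genes higher than the others did, although it had the fewest regions with a q value of at most 0.05. Of the 60 genes, 48 ranked higher in replicate 1 than in replicate 2, and 46 ranked higher in replicate 1 than in replicate 3, while replicates 2 and 3 each led in 30. Median ranks over the 60 were 584.5, 1003.5 and 1147.5. The order within the 60 was partly shared, with Spearman's rho of 0.702 between replicates 1 and 2, 0.592 between 1 and 3 and 0.581 between 2 and 3. These are descriptions over genes that were ranked within the same 3 lists, and the optimal list was itself made from them.

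**Figure D2:**
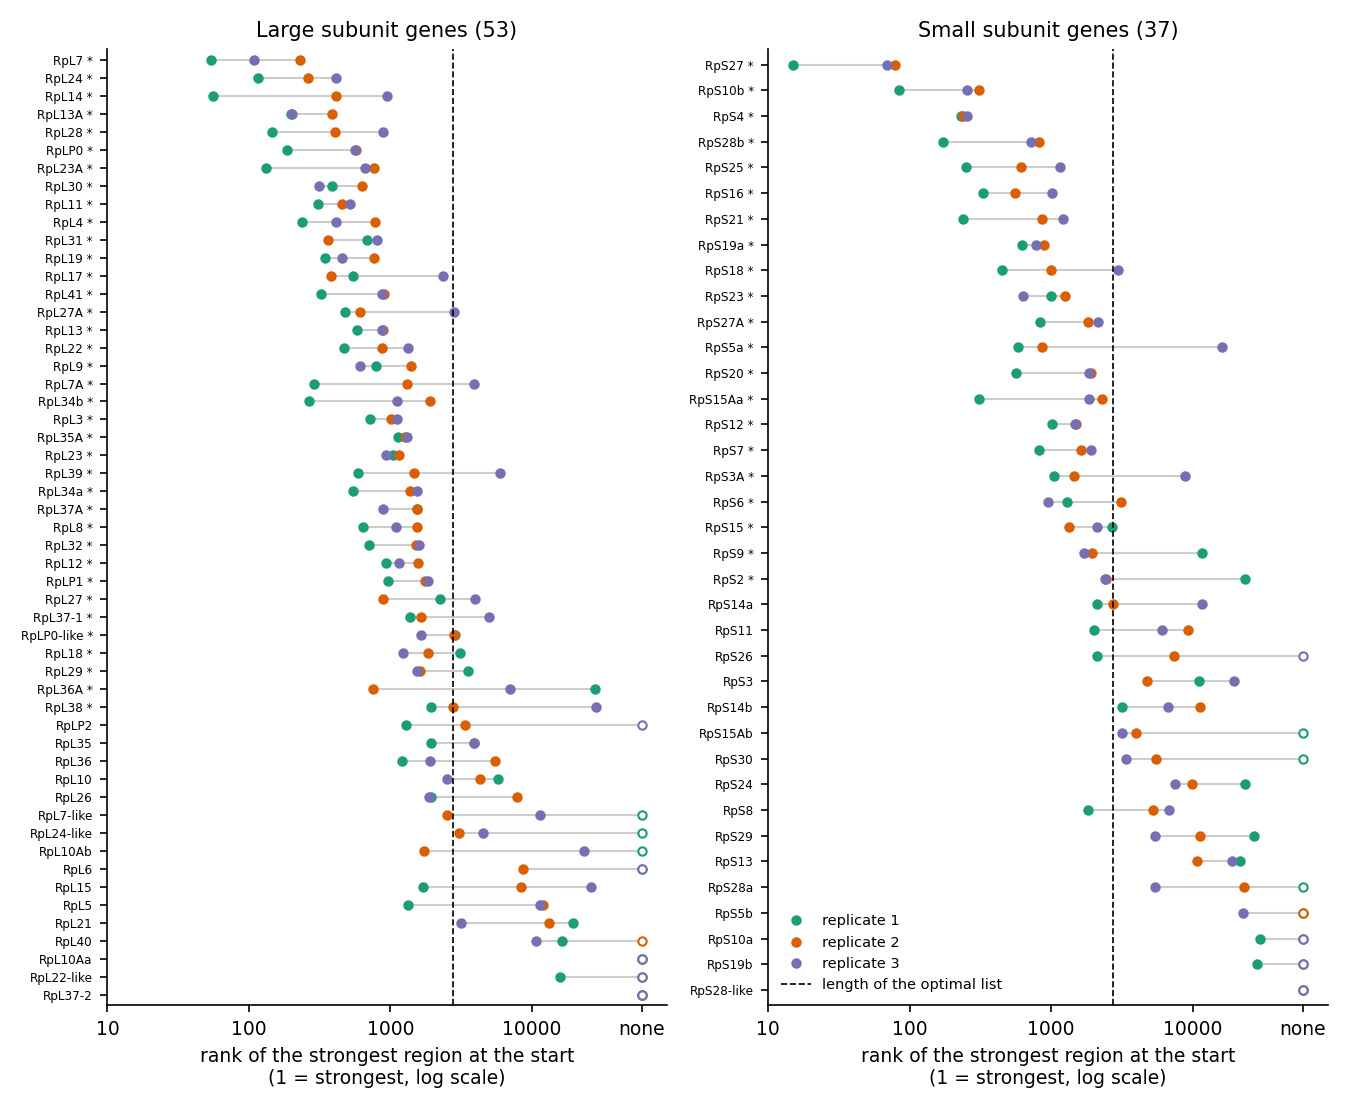
Rank of the strongest region within 500 bp of the start (x axis, log scale, 1 is strongest) for 90 of the 92 ribosomal protein genes, ordered by their pooled rank. Points are the 3 replicates, open points mark no region, a star marks an optimal summit and the dashed line is rank 2756; most starred genes are left of the line in all 3 replicates, and RpL36A, RpS2 and RpS5a are among those that are not.

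Within the optimal list the ribosomal protein genes sat in the upper part but seldom at the very top. With the list divided into 4 equal parts by rank, 22 of the 60 fell in the strongest part, 24 in the second, 12 in the third and 2 in the weakest. All other genes with an optimal summit at their start were spread evenly, with 27.5%, 23.3%, 22.5% and 26.7% in the 4 parts. The median optimal rank was 952 for ribosomal protein genes and 1350 for all other genes.

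The 32 genes without an optimal summit were not near the distance limit, and they differed widely in rank. Only RpS28a had an optimal summit nearby, 681 bp from its start, and the next nearest case, RpLP2, was at 2069 bp. The strongest summit of each of the 60 lay at most 164 bp away, so no gene came close to the limit of 500 bp from inside. In rank, 26 of the 32 (81.3%) had a region at their start in the pooled list, against 38.3% of all protein-coding genes without an optimal summit. In 17 (53.1%) its rank was at most 5512, which is 2 times the length of the optimal list, against 8.25%. The first 4 beyond the end of the optimal list were RpLP2 at 2794, RpL35 at 3085, RpL36 at 3148 and RpL10 at 3249.

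In single replicates, 3 of the 32 were in the top regions of 2 replicates, 10 in those of 1 and 19 in none. The matching shares of all protein-coding genes without an optimal summit were not counted, so these numbers only describe the 32. Those with 2 were RpL26 (1940, 7880 and 1881), RpL36 (1220, 5527 and 1913) and RpS14a (2093, 2743 and 11662). A region with a q value of at most 0.05 was present at 11, 18 and 14 of the 32 starts in replicates 1, 2 and 3. These are 34.4%, 56.3% and 43.8%, against 3.75%, 17.05% and 12.3% of all protein-coding genes without an optimal summit. Over all 92 genes, 75 had a region in the full list of each replicate (81.5%, against 21.3% of all protein-coding genes). Only RpL10Aa, RpL37-2 and RpS28-like had a region in no replicate list (3.26%, against 36.9% of all protein-coding genes).

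Most summits lay close to the nearest annotated start of their own gene. Over the 60 genes the median offset of the optimal summit was −4 bp, with quartiles at −34.75 and 10.5 bp, where negative is upstream. The summit was upstream in 31 genes, downstream in 28 and on the start base in RpS3A. It lay within 50 bp of the start in 46 of 60 genes (76.7%) and within 100 bp in 55. For all other genes with an optimal summit the median offset was −125 bp, and 14.6% of 1198 lay within 50 bp. Having several annotated starts, as 51.7% of the 60 and 26.3% of all other genes did, can shorten the distance to the nearest one. Its share in the difference was not tested. Of the 28 genes with a downstream summit and RpS3A, 27 had it in a noncoding part of an exon, RpS15 in a coding exon and RpS9 in an intron.

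Each replicate showed the same placement. The median absolute distance to the start was 31, 22.5 and 28 bp in replicates 1, 2 and 3 for ribosomal protein genes, and 155, 137 and 145 bp for all other genes with a top region. The difference was −118.5 ± 4.92 bp (SD, n = 3; exact sign-flip permutation p = 0.25, two-sided). The median signed offset was −21, 4.5 and −6 bp, with a mean of −7.5 ± 12.8 bp (SD, n = 3; exact permutation p = 0.5, two-sided). It was thus upstream in 2 replicates and downstream in 1, within the spread between replicates. Mitochondrial ribosomal protein genes had median absolute distances of 136, 137 and 151 bp over 6 to 11 genes, and translation factor genes 82, 93 and 52 bp over 9 to 11 genes.

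**Figure D3:**
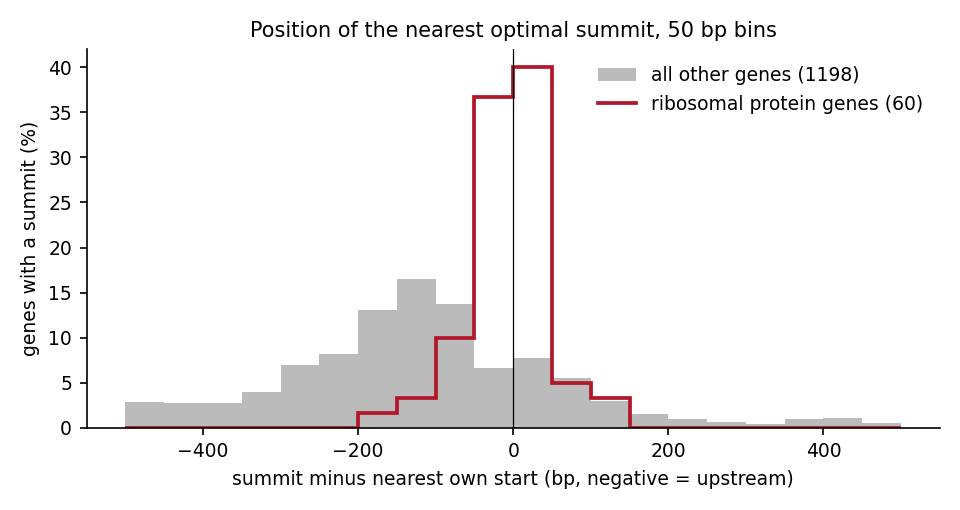
Offset of the nearest optimal summit from the nearest own transcript start (x axis, bp, negative is upstream) as a percentage of genes with such a summit (y axis), in bins of 50 bp. The outline is the 60 ribosomal protein genes, with 46 of them within 50 bp, and the grey fill the 1198 other genes, whose median is −125 bp.

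For a single gene the offset from the nearest own start varied between replicates by more than its typical size. The range of the 3 replicate offsets had a median of 54.5 bp over the 60 genes, beside a median absolute distance from the start of 25.5 bp. It was at most 100 bp in 49, with a largest value of 213 bp (RpS9). An offset of a few bp in 1 list is therefore within this spread. Where a gene has several starts, replicates can be measured from different ones. The range is then not the movement of the summit itself. RpS20 was the farthest, with its summit 164 bp upstream, and its 3 replicates gave −125, −149 and −179 bp. Large and small subunit genes had median absolute distances of 28.5 ± 5.22 bp and 26.2 ± 4.07 bp (SD, n = 3 each). In replicates 1, 2 and 3 they were 31, 22.5 and 32 bp for the large subunit and 29, 21.5 and 28 bp for the small. The large subunit value was thus slightly higher in each replicate, and this paired difference was not tested.

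In 58 of 60 genes the start nearest to the strongest summit was the gene's own. The exceptions were RpL34a, whose summit 127 bp upstream was 102 bp from the start of Trmt61, and RpLP0-like, whose summit 111 bp upstream was 24 bp from the start of 14-3-3zeta. A gene on the opposite strand with a start within 500 bp was present for 27 of the 60 genes and for 9 of the 32 without a summit. At such starts a summit cannot be given to 1 gene by position alone. The share of all protein-coding genes with such a neighbour was not counted, so these counts are not read as a difference.

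Paralogous copies often differed. Of 8 pairs named a and b, the a copy alone had an optimal summit in 3 (RpS5a, RpS15Aa and RpS19a), the b copy alone in 2 (RpS10b and RpS28b), both in 1 (RpL34a and RpL34b) and neither in 2 (RpL10A and RpS14). Shares with a top region were 62.5%, 62.5% and 37.5% for a copies and 37.5%, 50% and 37.5% for b copies in replicates 1, 2 and 3. The difference was 12.5 ± 12.5 percentage points (SD, n = 3; exact sign-flip permutation p = 0.5, two-sided), a mean no larger than its own SD.

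Within pairs the contrast in rank was large. RpS19a had ranks 618, 893 and 786 in replicates 1, 2 and 3, while RpS19b, known for germline expression, had rank 28701 in replicate 1 and no region in the others. RpS5a had ranks 586, 863 and 16218, and RpS5b, known for expression in the ovary, had rank 22785 in replicate 3 and no region in replicates 1 and 2. RpS10b had ranks 84, 310 and 252, and RpS10a had rank 29850 in replicate 1 only. In these 3 pairs every replicate that had a region at both copies ranked the copy with the optimal summit higher.

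The next pairs ran the same way. RpS28b had ranks 171, 819 and 722, and RpS28a had ranks 23121 and 5414 in replicates 2 and 3 and no region in replicate 1. RpS15Aa had ranks 309, 2279 and 1851, and RpS15Ab had ranks 3998 and 3148 in replicates 2 and 3 and none in replicate 1. The coding sequences of RpS15Aa and RpS15Ab were 98.2% identical, while their promoter windows, from 250 bases before to 50 after the start, were 60% identical. Over all paralogue pairs described here, promoter identity ran from 56% (RpL22 and RpL22-like) to 64.7% (RpS14a and RpS14b). No value for unrelated promoters is given, so these identities are not read as conservation.

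The pair with 2 summits was RpL34a (542, 1378 and 1551; optimal rank 1112) and RpL34b (265, 1912 and 1121; optimal rank 892), in which no copy led in all replicates. RpS14a and RpS14b lie 1156 bp apart on X with 97.8% identical coding sequence. Their ranks were 2093, 2743 and 11662 for RpS14a and 3166, 11187 and 6738 for RpS14b, and their pooled ranks of 3848 and 4407 lay beyond the optimal list. How the authors treated reads that match several places is not given in the sources used here, so values inside near-identical coding sequence are uncertain. The regions counted here lay at the starts, where the promoter windows of RpS14a and RpS14b were 64.7% identical. RpL10Ab had ranks 1726 and 23621 in replicates 2 and 3, none in replicate 1, and RpL10Aa had no region.

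Genes named -like stood below the gene they are named for in all 4 pairs with such a partner. RpL7-like, RpL24-like and RpLP0-like are relatives of proteins that, in yeast, assemble the large subunit, and RpL22-like is known for expression in the testis. RpL22 had ranks 468, 873 and 1340, and RpL22-like had rank 15829 in replicate 1 only. RpL24-like had ranks 3065 and 4497 in replicates 2 and 3, against 264 and 415 for RpL24 in the same replicates. RpL7-like had ranks 2521 and 11439 in replicates 2 and 3, against 231 and 109 for RpL7. RpLP0-like, at 2865, 2825 and 1650, was the only -like gene with an optimal summit, and that summit was nearer to 14-3-3zeta. The pair RpL37-1 (1383, 1638 and 4969; optimal rank 1487) and RpL37-2 (no region) was added after their values were seen.

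**Figure D4:**
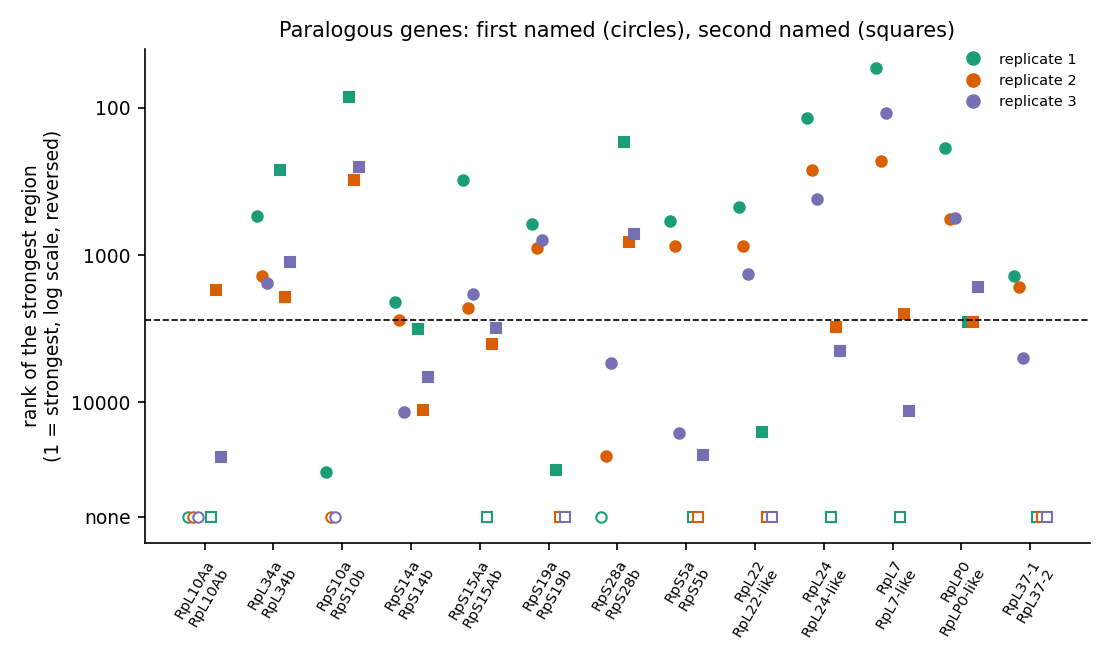
Rank of the strongest region at the start (y axis, log scale, reversed so that strong regions are on top) for 13 pairs of paralogues. Circles are the first gene named and squares the second, colours are replicates, open symbols mark no region and the dashed line is rank 2756. In the RpS10, RpS15A, RpS19, RpS28, RpL22 and RpL24 pairs, 1 gene lies above the line in all 3 replicates. The other gene lies below it or has no region.

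Ribosomal protein genes without introns had no optimal summit, although such genes are few. There were 6 ribosomal protein genes with no annotated intron, RpL10Aa, RpL37-2, RpLP2, RpS10a, RpS15Ab and RpS28a, and 0 of 6 had a summit, against 60 of 86 with introns. Of all protein-coding genes, 4.74% of those without introns and 9.77% of those with introns had one. RpLP2 aside, the intronless genes are all copies in the paralogue pairs described above, so having no intron and being 1 of a pair can hardly be told apart. Among genes without a summit, 26 of 32 did have introns. A snoRNA inside the gene, a small RNA that guides modification of ribosomal RNA, was annotated in 22 of the 60 and in 6 of the 32. The share over all protein-coding genes was not counted, so neither count can be called unusual. More than 1 annotated start was present in 31 of the 60 (51.7%) and 13 of the 32 (40.6%), against 26.3% of all other genes. A gene with several starts has more chances of a summit within 500 bp, and with the 5′ end of each gene as its only start the count was again 60.

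The TCT initiator was common at ribosomal protein genes, both with and without a summit. It was found at a start of 57 of 92 genes (61.96%), against 5.13% of all protein-coding genes, 5.48% of mitochondrial ribosomal protein genes and 11.1% of translation factor genes. Among genes with a summit it was present in 40 of 60 (66.7%) and among those without in 17 of 32 (53.1%), a difference of 13.5 percentage points. In 45 of the 57 genes its C lay 2 to 5 bases after the annotated start. With the C allowed up to 10 bases away, a limit chosen after seeing where the motif lay, 82.6% of ribosomal protein genes had it against 9.54% of all genes, with 88.3% and 71.9% in those with and without a summit. In the 40 genes with both, the summit was a median of 16.5 bp upstream of that C, written as −16.5 bp, and within 50 bp of it in 33.

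Other promoter motifs were counted as letters only. The initiator TCAGT, with its A at most 5 bases from a start, was found in 1.09% of ribosomal protein genes and 14.0% of all genes. TATAAA starting 40 to 20 bases before the start was found in 1.09% and 7.90%. In the window from 250 bases before to 50 after the start, on either strand, TATCGATA (the DNA replication-related element, DRE) was found in 30.4% against 8.94% of all genes, but also in 27.8% of translation factor genes and 20.5% of mitochondrial ribosomal protein genes. It was present in 26.7% of the genes with a summit and 37.5% of those without. GGTCACACT (Motif 1 of fly core promoters) was found in 9 of 60 genes with a summit and 0 of 32 without. That is 9.78% of all ribosomal protein genes, against 10.96% of mitochondrial ribosomal protein genes, 5.56% of translation factor genes and 5.86% of all genes. CACGTG, the E-box bound by Myc, was found in 11 of 54 large subunit genes and 0 of 38 small subunit genes, against 4.25% of all genes. A match is not a bound site, and these counts were not tested.

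The E-boxes that Achaete binds with its partner Daughterless were searched in the forms GCAGCTG and GCAGGTG only, and these forms were nearly missing. GCAGCTG or GCAGGTG, on either strand, lay within 100 bp of 1 of the 61 summits at ribosomal protein gene starts (1.64%). Among the 965 optimal summits at starts of other protein-coding genes the share was 16.1%, and over all 2756 it was 17.9%. The exception was RpS16 (optimal rank 523), where a GCAGCTG was centred 47 bp and a GCAGGTG 79 bp upstream of the start. GAGAG, the core of the GAGA element, was found at 9.84% of the 61 summits and 32.0% of the 965. The DRE was found at 21.3% of the 61 and 2.69% of the 965. Motif 1 was found at 13.1% and 1.24%, and CACGTG at 13.1% and 3.21%. No match says only that these letters are not in the window. Other forms of the E-box, such as ACAGCTG, were not counted.

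**Figure D5:**
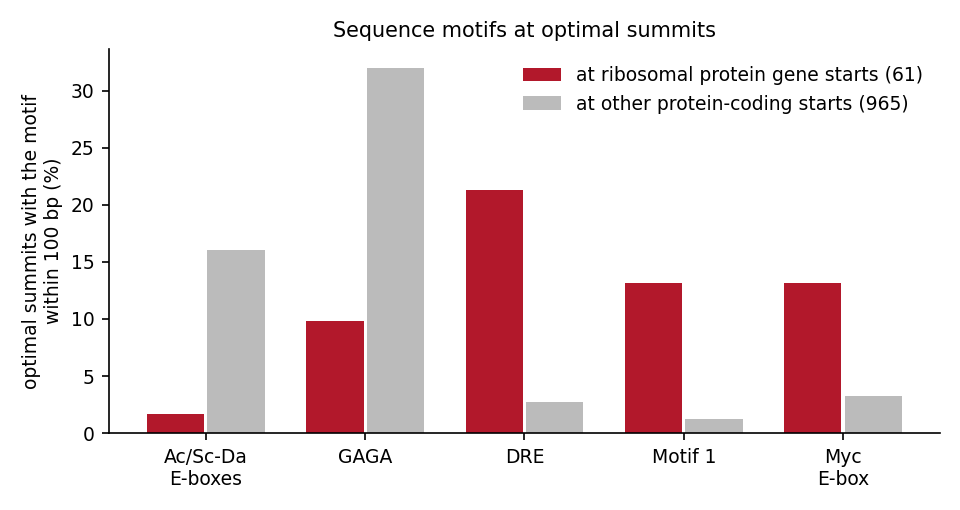
Percentage of optimal summits with each motif within 100 bp on either strand (y axis) at starts of ribosomal protein genes (61 summits) and of other protein-coding genes (965 summits). The Ac/Sc-Da E-boxes (GCAGCTG or GCAGGTG) and GAGA are lower at ribosomal protein gene starts (1.64% and 9.84%, against 16.1% and 32.0%). The DRE, Motif 1 and the Myc E-box are higher there.

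The genes were spread over the genome. On 2L, 12 of 19 had a summit, on 2R 15 of 21, on 3L 10 of 14, on 3R 12 of 23 and on X 10 of 14. RpS3A, the single ribosomal protein gene on chromosome 4, had one. The share over all protein-coding genes of each arm was not counted, so these counts are not read as differences between arms.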

How the data were processed

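Per the file headers and notes, the authors deposited region lists of each replicate, made against a control alignment before thresholding, a pooled list and an optimal list on dm6. Neither the caller nor its settings or threshold are given in the sources used here. The control alignment and the dm3 lists were not analysed here. The deposited signal value is a score of unstated scale and was used only for ranks within a list. The deposited −log10 q value was turned into q, and the summit offset gave positions, counted from 1. The optimal list equals the 2756 strongest regions of the pooled list.

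Gene models were Ensembl release 115 (BDGP 6.54), with sequence from the RefSeq release 6 genome. A summit belonged to a gene within 500 bp of any of its annotated starts. Each replicate gave 1 value per gene group, and differences were tested by an exact two-sided sign-flip permutation test (scipy 1.17.1). Functions were tested on simulated summits. Identities came from global alignment (biopython 1.88).

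Named in full were the 10 genes with the strongest optimal summits, all paralogue pairs, genes next to the limits and 2 genes of each list. Members and lists were chosen with earlier results of these data known. Of 8 growth regulators, 7 matched by symbol. Counts cover all 92 genes, but values of 2 of them are not reported here.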

Additional observations from a re-analysis of the deposited data

How the results depend on the processing

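The 8 results were recomputed under other planned settings, each applied to the results it could change. This gave 78 alternative values, counted once per result and setting. The wider TCT limit gave 1 more and was added after seeing the data. With only the 1000 strongest optimal peaks, 31 ribosomal protein genes had a summit in place of 60. With only the 5′ end of the gene as start, the mean of the median signed offsets was 7.17 bp, on the other side of the start from −7.5 bp, and both lay within the spread between replicates. The a minus b difference was 0 percentage points with the 1000 strongest regions and with regions at a q value of at most 0.05. The excess over all other genes ranged from 32.2 points (1000 strongest regions) to 60.02 (q of at most 0.05). The large minus small difference ranged from 10.2 (q of at most 0.05) to 15.7 (without genes named -like). Leaving out 1 replicate gave 53.0 to 58.3 points for the excess, 12.7 to 13.3 for large minus small, 6.25 (without replicate 1) to 18.8 (without replicate 3) for a minus b and −13.5 (without replicate 2) to −0.75 bp (without replicate 1) for the offset. The optimal list could not be remade without a replicate. Optimal summits with a top summit of both remaining replicates within 150 bp, a stricter subset of the list, lay at the starts of 43 to 51 genes. The TCT difference ranged from 6.52 points (without replicate 1) to 22.9 (5′ end only). With 1 group, no samples could be paired across groups, and differences between gene groups were taken within each replicate. No test over 3 replicates could pass 0.05, depth was unknown, and the control alignment was not analysed here.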
